A study of Homo sapiens with 8 samples.

Results

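The 10 genes described here are textbook direct targets of the transcription factor p53: MDM2, BBC3, BAX, FAS, TP53I3, SESN1, ZMAT3, RRM2B, TP53INP1 and FDXR. They were taken by gene symbol, by a rule that has no threshold on their values, and all 10 had a row among the 25603 genes of the table. RNA was sequenced from HepG2 cells, an established line derived from the liver carcinoma of 1 donor that has wild-type p53 and, by the labels, no engineered change, and the 2 groups differ in treatment. The treated cells (EZHi, 4 libraries) received the EZH1/2 inhibitors UNC1999 and valemetostat tosylate for 4 days, each at 1 µM, and the vehicle cells (4 libraries) received DMSO, which is 0.2% in the labels and lower in the methods text of the study. EZH1 and EZH2 are the catalytic subunits of polycomb repressive complex 2 (PRC2), which trimethylates lysine 27 of histone H3, and the inhibitors were always given together, so their separate effects cannot be told apart. The comparison asks how the p53 targets of these cells were expressed when PRC2 activity was blocked.

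p53 is a stress sensor that binds DNA as a tetramer and turns on genes that halt the cell cycle, repair or buffer damage, or kill the cell. In unstressed cells it is kept scarce by MDM2, a ubiquitin ligase that marks it for degradation and is itself a p53 target, so the transcripts of p53 targets are widely read as an output of p53 activity. p53 is best known in the liver as a tumor suppressor that is often mutated in hepatocellular carcinoma, although HepG2 cells retain the wild-type gene.

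Levels are on the deposited log2 scale, which is normalized across libraries and corrected for transcript length, and an estimated FPKM (fragments per kilobase of transcript, scaled to library size) was computed from them to compare genes. A difference is a log2 fold change, EZHi minus vehicle, and a gene is called where limma's moderated test over 20153 genes gave a Benjamini-Hochberg adjusted p under 0.05. The study describes the 4 replicates as biologically independent, while the labels say nothing about separate cultures, so p-values measure the spread between these samples. The deposited values are normalized, and read depth is unknown: the libraries summed to between 24.4 and 27.3 M normalized reads, a result of the shared scaling rather than of depth. The 6 hepatocyte markers checked (ALB, AFP, APOA1, TTR, SERPINA1 and HNF4A) had mean estimated FPKM from 205 to 16200, and none was called without a replicate block. With the replicate number as a block ALB was lower (-0.28, limma adjusted p = 0.0314) and APOA1 higher (0.42, adjusted p = 0.00812), and with centering as well 3 of the 6 were called, all higher. Of 5 markers of other liver cells PECAM1 was at a mean estimated FPKM of 1.63, LYVE1 at 0.300 and DES at 0.219, and PTPRC and CD68 had no row. LYVE1 was called only with the block (0.36, adjusted p = 0.0207). As in any bulk measurement, fewer cells expressing a gene and less RNA per cell cannot be told apart.

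Promoter sequence with letters like those p53 binds is shown for 4 members, because the deposited values sum all transcripts of a gene and do not separate the start site beside the element from the others. RefSeq promoter windows (GRCh38.p14, the 250 bases upstream of a start site) were at hand for 8 of the 10 members, in 17 windows. They were searched, in an orientation that reads the same on either strand, for the p53 response element, which is 2 half-sites of 10 letters each, here with no spacer and at most 3 mismatches outside the invariant core letters. A match was found in 5 of the 17 windows, belonging to 4 members, and in 321 of the 35116 windows of all genes (0.914%). These shares are a description only, since the genes are known p53 targets, the mismatch limit was set after the windows were read, 2 of the 4 elements have the full 3 mismatches, and 2 overlapping MDM2 windows hold the same element. The capitals mark the matched element, and each sequence is given 5′ to 3′ on the strand of its gene.
MDM2 (chr12:68808767-68809016, plus strand): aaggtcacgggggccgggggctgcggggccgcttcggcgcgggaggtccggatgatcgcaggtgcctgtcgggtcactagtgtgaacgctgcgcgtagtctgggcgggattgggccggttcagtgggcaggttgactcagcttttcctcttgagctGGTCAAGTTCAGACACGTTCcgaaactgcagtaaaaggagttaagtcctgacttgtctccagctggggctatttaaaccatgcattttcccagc
FAS (chr10:88991181-88991430, plus strand): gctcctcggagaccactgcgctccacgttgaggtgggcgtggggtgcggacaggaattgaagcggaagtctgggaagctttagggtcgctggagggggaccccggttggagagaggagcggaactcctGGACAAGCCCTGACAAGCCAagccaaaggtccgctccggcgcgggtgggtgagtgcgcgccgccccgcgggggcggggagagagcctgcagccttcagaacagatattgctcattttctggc
SESN1 (chr6:109008989-109009238, minus strand): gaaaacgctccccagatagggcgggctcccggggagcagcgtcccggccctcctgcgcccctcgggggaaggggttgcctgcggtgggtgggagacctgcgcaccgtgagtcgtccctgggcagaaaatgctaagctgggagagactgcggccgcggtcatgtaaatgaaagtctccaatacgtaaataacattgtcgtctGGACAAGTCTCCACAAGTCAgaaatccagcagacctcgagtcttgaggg
FDXR (chr17:74872995-74873244, minus strand): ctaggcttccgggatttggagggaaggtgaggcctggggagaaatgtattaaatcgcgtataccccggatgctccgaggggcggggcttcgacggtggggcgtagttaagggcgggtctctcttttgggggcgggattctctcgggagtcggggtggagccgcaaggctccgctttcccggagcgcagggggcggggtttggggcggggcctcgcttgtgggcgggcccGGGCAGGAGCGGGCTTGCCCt

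In MDM2 the element lay at a start site 845 bases downstream of the first one, began 94 bases before it and had 2 mismatches. For FAS the start site was 633 bases downstream of the first, with the element 122 bases before it and 2 mismatches. The SESN1 element, with 3 mismatches, began 49 bases before a start site that lies 85858 bases downstream of the first. FDXR carried its match, also with 3 mismatches, 21 bases before its first start site. A match describes letters and not occupancy, and the lack of one in BBC3, BAX, TP53I3 and ZMAT3 says only that these letters were not in these windows. The member windows were rich in CpG, with a median of 17 CpG dinucleotides against 11 over all windows, and 12 of the 17 lay above that value. These windows belong to 8 genes, and some of MDM2 and of FAS overlap, so they are not independent.

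The p53 targets were expressed in every HepG2 library, and their levels spanned a wide range. Over the 8 libraries the highest mean was that of BAX, at an estimated FPKM of 198.5 ± 24.4 (SD, n = 8), which was higher than 98.0% of all genes. MDM2 followed at 122 ± 14.4, then FDXR at 74.3 ± 11.1, RRM2B at 63.2 ± 8.62 and TP53I3 at 38.8 ± 6.92. Lower levels were seen for BBC3 (15.4 ± 1.83), SESN1 (14.7 ± 2.11) and ZMAT3 (13.9 ± 1.76), and the lowest for TP53INP1 (8.87 ± 0.939) and FAS (5.08 ± 1.20). In this order the ranges of FDXR and RRM2B overlapped, as did those of BBC3 and SESN1 and of SESN1 and ZMAT3, while the other neighbors were separated in every library. Even FAS, the least abundant, was higher than 62.8% of genes. This order depends on the correction by mean transcript length, which does not weigh the transcripts by their use in these cells. The mean lengths in GENCODE are 0.702 kb for BAX, 1.19 kb for MDM2 and 5.62 kb for TP53INP1.

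**Figure D1:**
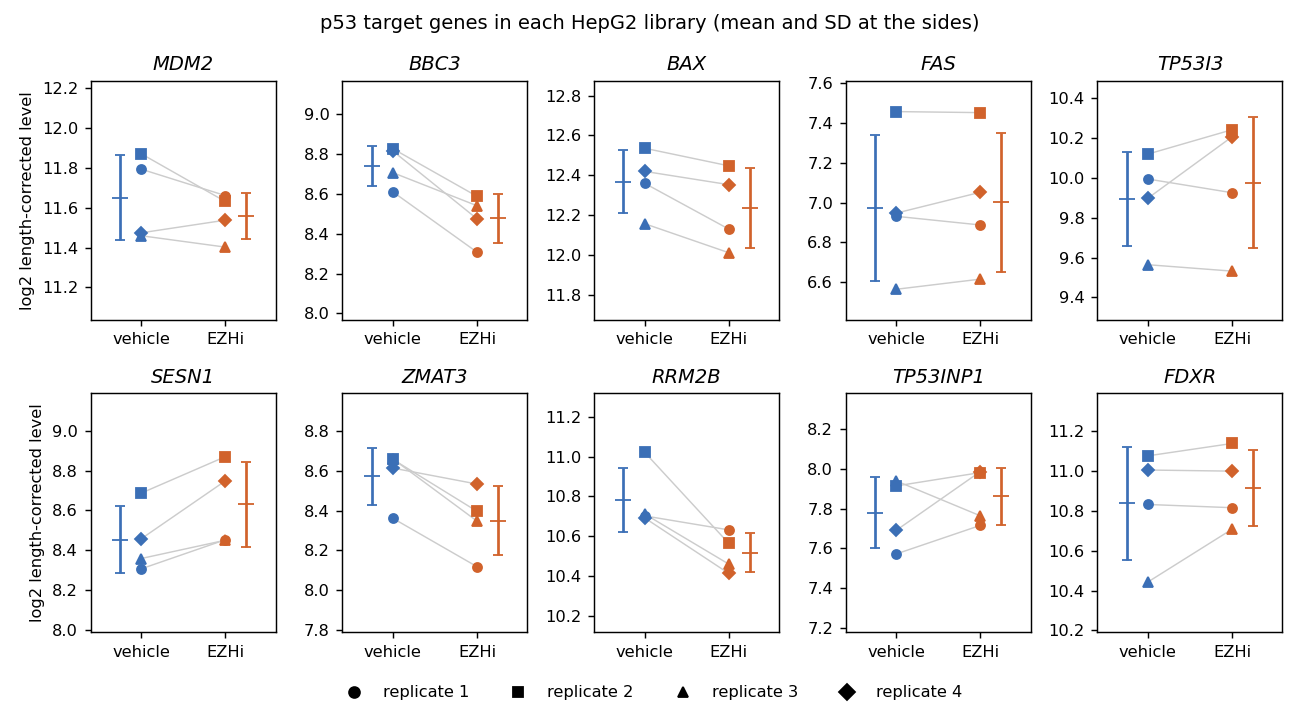
Level of each of the 10 p53 target genes in every library, on the deposited log2 scale (y axis, 1 panel per gene, each panel spanning the same 1.2 log2 units), with points for the 4 vehicle and 4 EZHi libraries, a symbol and a gray line for each replicate number, and the group mean and SD at the sides. The vehicle and EZHi points overlap in 8 panels and separate in those of BBC3 and RRM2B, whose 4 EZHi points all lie below the vehicle points.

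None of the 10 p53 targets was called between EZHi and vehicle cells, against 13.1% of all genes tested (8.85% higher and 4.27% lower). All 10 passed the filter on low values. At an unadjusted p under 0.05 there were 2 of 10, BBC3 and RRM2B, against 26.6% of all genes. Log2 fold changes ran from -0.26 to 0.18, 5 above and 5 below 0, with a median of -0.03 against -0.01 over all genes tested and -0.09 over the 9006 genes whose level lay within the members' range. The 95% confidence intervals of the members lay between -0.46 and 0.50 on the log2 scale, so a change of 1 log2 unit was outside the interval of each. In 4 of the 10 the EZHi library was lower than the vehicle library of the same number in 4 of 4 pairs, and in 1 it was higher in 4 of 4, against 44.8% of all genes with the same sign in every pair (24.2% lower, 20.6% higher).

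When the replicate number was added as a block, 4 members were called, against 30.0% of all genes (14.9% higher, 15.1% lower). BBC3, RRM2B and ZMAT3 were lower (adjusted p = 0.00676, 0.0115 and 0.0195, limma with the block) and SESN1 was higher (adjusted p = 0.0405). Among the 9006 genes in the members' range of levels the same fit called 38.7%, 876 genes higher and 2609 lower. The values also depended on scaling, because centering the libraries on abundant genes moved the median of all genes from -0.01 to 0.09 and that of the members to 0.06. No member was called after centering alone, against 14.2% of all genes (12.7% higher, 1.58% lower), or after quantile normalization, against 10.8% (6.93% higher, 3.89% lower). With both the centering and the block 3 members were called against 29.4% of all genes (22.6% higher, 6.79% lower), BBC3 lower and SESN1 and FDXR higher.

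**Figure D2:**
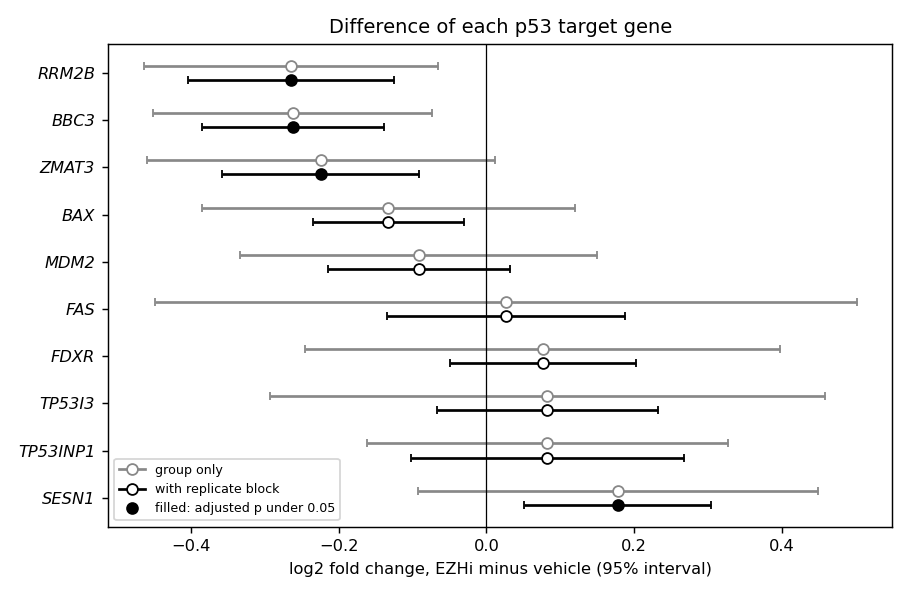
Log2 fold change (EZHi minus vehicle, x axis) of each p53 target gene with its 95% confidence interval, for limma without (gray) and with (black) the replicate number as a block, filled where the adjusted p was under 0.05. Without the block the intervals of BBC3 and RRM2B alone lie below 0, and all 10 intervals stay between -0.46 and 0.50.

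MDM2, the feedback inhibitor of p53 (ENSG00000135679, chr12:68808177-68845544, plus strand), was at a log2 level of 11.79, 11.87, 11.46 and 11.47 in vehicle replicates 1 to 4 and of 11.66, 11.63, 11.40 and 11.54 in EZHi replicates 1 to 4. The groups overlapped, with replicates 1 and 2 above replicates 3 and 4 in each. The difference was -0.09 (SE 0.11, 95% CI -0.33 to 0.15, limma adjusted p = 0.657), and the level was higher with EZHi in 1 of 4 pairs. Its sign was lost under other scalings, with a difference of 0.00 after centering and 0.03 after quantile normalization. Of the exonic bases of MDM2, 14.7% are shared with overlapping genes, CPM among them, and reads there could not be told apart by strand because counting ignored it.

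None of the 4 members that act in cell death was called without the replicate block, and BBC3 alone was called with it. BBC3 encodes PUMA, a BH3-only protein that frees BAX and BAK from their inhibitors (ENSG00000105327, chr19:47220822-47232766, minus strand). Its log2 level was 8.61, 8.83, 8.71 and 8.82 in the vehicle libraries and 8.31, 8.59, 8.54 and 8.48 with EZHi. Each EZHi library lay below each vehicle library, although by as little as the gap between vehicle replicate 1 and EZHi replicate 2. The estimated FPKM went from 16.7 ± 1.17 to 14.0 ± 1.16 (SD, n = 4), a fold of 0.834 (95% CI 0.731 to 0.951). The log2 difference of -0.26 (SE 0.08) had an unadjusted p of 0.0116 and an adjusted p of 0.0733 by limma, so BBC3 missed the threshold. It was lower in 4 of 4 pairs, by 0.17 to 0.34, and passed with the block (adjusted p = 0.00676). After centering the difference was -0.17, with an adjusted p of 0.226 without the block and 0.0482 with it.

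BAX, the pore-forming protein of the mitochondrial outer membrane (ENSG00000087088, chr19:48954815-48961798, plus strand), stood at 12.36, 12.54, 12.16 and 12.42 in vehicle replicates 1 to 4. With EZHi it stood at 12.13, 12.45, 12.01 and 12.35. Replicate 2 was the highest and replicate 3 the lowest in both groups, and the groups overlapped. The difference was -0.13 (SE 0.11, 95% CI -0.39 to 0.12, limma adjusted p = 0.512), lower in 4 of 4 pairs and not called with the block (adjusted p = 0.0551).

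FAS encodes a death receptor of the cell surface (ENSG00000026103, chr10:88953813-89029605, plus strand). Vehicle libraries had log2 levels of 6.93, 7.46, 6.56 and 6.95, and EZHi libraries 6.89, 7.45, 6.62 and 7.05. The same replicate pattern was seen in both groups, with replicate 2 highest and replicate 3 lowest, and the spread between replicates was larger than the difference between the group means. The log2 difference was 0.03 (SE 0.21, 95% CI -0.45 to 0.50, limma adjusted p = 0.959), and it was -0.05 after quantile normalization.

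TP53I3, also named PIG3, is a quinone oxidoreductase homolog linked to oxidative stress in p53-dependent death (ENSG00000115129, chr2:24077433-24085861, minus strand). It was at 9.99, 10.12, 9.56 and 9.90 in vehicle cells and at 9.93, 10.24, 9.53 and 10.21 in EZHi cells. The groups overlapped, with replicate 3 lowest in both. The difference of 0.08 (SE 0.17, 95% CI -0.29 to 0.46) was not called (limma adjusted p = 0.815).

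The members that buffer stress or supply nucleotides had differences of both signs. RRM2B encodes the p53-inducible small subunit of ribonucleotide reductase, which makes deoxynucleotides for DNA repair (ENSG00000048392, chr8:102204502-102238961, minus strand). Its log2 level was 10.70, 11.02, 10.71 and 10.69 in vehicle replicates 1 to 4 and 10.63, 10.56, 10.46 and 10.41 in EZHi replicates 1 to 4. Vehicle replicate 2 stood above the other 3 vehicle libraries, and the EZHi libraries all lay below the lowest vehicle library. The difference was -0.26 (SE 0.09, 95% CI -0.46 to -0.07), a fold of 0.832, with an unadjusted p of 0.0147 and an adjusted p of 0.0852 by limma. RRM2B was lower in 4 of 4 pairs, by 0.07 to 0.46, and the difference was -0.18 without vehicle replicate 2. With the block it was called (adjusted p = 0.0115), but not with the block and centering together (adjusted p = 0.0704). BBC3 and RRM2B were the 2 members of 10 whose groups did not overlap, both lower, against 18.6% of all genes (7.93% lower).

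ZMAT3 encodes a zinc finger protein that binds RNA and modulates splicing (ENSG00000172667, chr3:178960121-179072215, minus strand). It had log2 levels of 8.36, 8.66, 8.66 and 8.61 in vehicle cells and 8.12, 8.40, 8.35 and 8.53 in EZHi cells. Replicate 1 was the lowest library of each group, and vehicle replicate 1 was within the EZHi range. The difference was -0.22 (SE 0.11, 95% CI -0.46 to 0.01, limma adjusted p = 0.212), and ZMAT3 was lower in 4 of 4 pairs. The block gave an adjusted p of 0.0195, and the block with centering 0.137.

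SESN1 encodes a sestrin, a stress-induced protein that restrains mTORC1 (ENSG00000080546, chr6:108984309-109094846, minus strand). The vehicle libraries had 8.31, 8.69, 8.36 and 8.46 and the EZHi libraries 8.45, 8.87, 8.45 and 8.75. Replicate 2 was highest in both groups, and the groups overlapped. SESN1 was the only member higher with EZHi in 4 of 4 pairs, by 0.09 to 0.29, with a mean log2 difference of 0.18 (SE 0.12, 95% CI -0.09 to 0.45). It was not called by limma (adjusted p = 0.400), was called with the block (adjusted p = 0.0405) and remained so with the block and centering (0.27, adjusted p = 0.0052).

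TP53INP1 encodes a stress-induced nuclear protein that also acts in autophagy (ENSG00000164938, chr8:94925972-94949378, minus strand). Its values were 7.57, 7.91, 7.94 and 7.69 in vehicle cells and 7.72, 7.98, 7.76 and 7.99 in EZHi cells, a difference of 0.08 (SE 0.11, 95% CI -0.16 to 0.33, limma adjusted p = 0.699). The groups overlapped, and 3 of 4 pairs were higher with EZHi.

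FDXR encodes ferredoxin reductase, which passes electrons to the mitochondrial ferredoxins for steroid and iron-sulfur cluster synthesis (ENSG00000161513, chr17:74862497-74873031, minus strand). Levels of 10.83, 11.08, 10.44 and 11.01 were measured in vehicle cells and of 10.82, 11.14, 10.71 and 11.00 in EZHi cells. In both groups replicate 2 was highest and replicate 3 lowest. The difference was 0.08 (SE 0.14, 95% CI -0.25 to 0.40, limma adjusted p = 0.798). With the block and centering together it was 0.17 and called (adjusted p = 0.0403).

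The replicates of each group differed from one another, and the p53 targets tended to be high or low in the same libraries. Vehicle replicate 2 was the highest vehicle library for 8 of the 10 members (27.2% of all genes), and EZHi replicate 2 the highest EZHi library for 6 (27.7% of all genes). In both of these libraries 10 of 10 members lay above their group mean, by a median of 0.22 in the vehicle library and 0.17 in the EZHi library on the log2 scale. Replicate 3 was the lowest for 5 members in the vehicle group (32.2% of all genes) and for 6 in the EZHi group (29.5%), with median deviations of -0.14 and -0.17. The median deviation over all genes stayed between -0.01 and 0.01 in each library. Albumin went the other way, with log2 levels of 17.29 and 17.20 in replicate 2 of the vehicle and EZHi groups, the lowest of each group, and 18.78 and 18.37 in replicate 3, the highest. What sets the replicates apart was not tested.

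**Figure D3:**
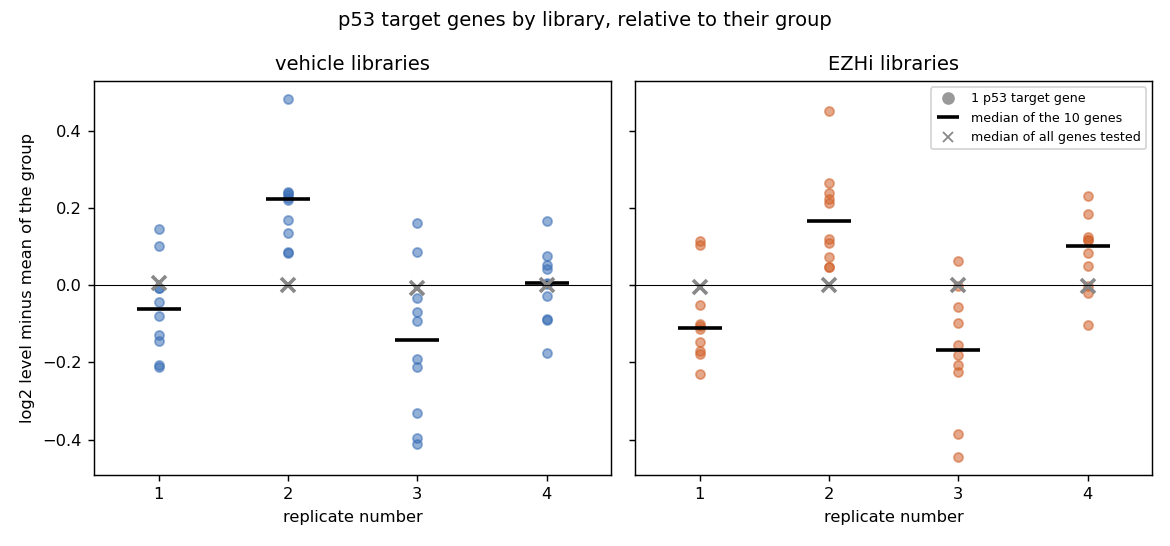
Deviation of each p53 target gene from its group mean (log2 units) in each of the 8 libraries (x axis, replicate number in each group), with bars for the members' median and crosses for that of all genes tested. Replicate 2 is above the mean for 10 of 10 members in both the vehicle and the EZHi group, and replicate 3 is below it for most.

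After group means were removed, 41 of the 45 pairs of members were positively correlated over the 8 libraries, with a median r of 0.46. The points share libraries and, across groups, replicate numbers, so this is a description. The same count was not made for pairs of other genes, so it is not known to be particular to the members. The most alike were BAX and TP53I3 (r = 0.95), BAX and FAS (0.94), BAX and FDXR (0.94), FAS and FDXR (0.90), and FAS and TP53I3 (0.89). MDM2 and ZMAT3 were the least alike (r = -0.36). Among the 13006 other genes whose estimated FPKM averaged 1 or more, those whose deviations were most like MDM2 were ZNF202, SUMO2P21, HCAR1, NMNAT1 and MAT2A, each with r = 0.98, and none is a member. The nearest members were FAS and RRM2B (both r = 0.71), which ranked 2318 and 2386, whereas BBC3 and ZMAT3 had negative values (-0.22 and -0.36).

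CDKN1A, which encodes the CDK inhibitor p21 and is the best known p53 target, was not called either. Its log2 level was 10.28, 11.04, 10.24 and 10.59 in vehicle cells and 10.28, 10.98, 10.34 and 10.48 in EZHi cells. Replicate 2 stood highest in both groups, and the groups overlapped. The difference was -0.02 (SE 0.20, 95% CI -0.46 to 0.43, limma adjusted p = 0.977), and CDKN1A was not called with the block (adjusted p = 0.862).

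Of 32 other p53 targets, 4 were called (12.5%, against 13.1% of all genes), 3 higher and 1 lower, and the median log2 fold change was -0.06. GDF15, a stress-induced secreted cytokine, fell from 12.54 ± 0.29 to 11.74 ± 0.23 (SD, n = 4), a log2 difference of -0.80 (SE 0.16, limma adjusted p = 0.00793), and was called in each of the 8 fits that left out 1 library. BTG2, an antiproliferative gene, rose from 8.11 ± 0.34 to 8.87 ± 0.25, by 0.77 (SE 0.18, limma adjusted p = 0.0180), and lost its call without EZHi replicate 4 (adjusted p = 0.0617). SPATA18, a gene of mitochondrial quality control, rose by 0.52 (adjusted p = 0.0281), a call lost without vehicle replicate 1 or 4 or EZHi replicate 2 or 4 (adjusted p up to 0.0891). FUCA1, a lysosomal fucosidase, was higher by 0.20 (adjusted p = 0.0366). Of the 8 fits that left out 1 library, only that without vehicle replicate 3 kept its call (adjusted p up to 0.0974 in the other 7). SPATA18 and FUCA1 were both called after centering (limma adjusted p = 0.00980 and 0.00587) and after quantile normalization (0.0210 and 0.0106). They were also called with the block (0.00119 and 0.00914). The list had 1 call without EZHi replicate 4 and 2 without vehicle replicate 1, vehicle replicate 4 or EZHi replicate 2. The most abundant uncalled targets were CCNG1 (-0.03, adjusted p = 0.850), TNFRSF10B (-0.14, adjusted p = 0.259) and PERP (-0.18, adjusted p = 0.163), of which PERP was called with the block (adjusted p = 0.0196). With the block 11 of 32 were called (34.4%, against 30.0% of all genes), 6 higher and 5 lower (14.9% and 15.1% of all genes).

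Upstream of the targets, 21 genes of the p53 family and its regulators were tested and 1 was called (4.76%, against 13.1% of all genes): CDKN2A, whose ARF product binds MDM2. CDKN2A rose from 6.47 ± 0.18 to 8.93 ± 0.28 (SD, n = 4), a fold of 5.49 (95% CI 4.37 to 6.89, limma adjusted p = 8.06e-06), with no overlap between groups. The gene-level value pools the transcripts of ARF and of the CDK inhibitor p16, and 15.3% of the exonic bases are shared with CDKN2B-AS1. Abundant regulators that were not called were RPL5 (0.02), RPL11 (-0.06) and USP7 (-0.03), with adjusted p from 0.747 to 0.944, and TP63 was below the filter. There were 3 calls in the list without vehicle replicate 3 and 2 without EZHi replicate 1 or EZHi replicate 2. With the block 6 were called (28.6%, against 30.0% of all genes), 5 of them lower. That fit called lower 15.1% of all genes and 2609 of the 9006 genes in the members' range of levels.

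Proteins that act with the members showed 5 calls among 18 tested (27.8%, against 13.1% of all genes). Of the 5, 2 were higher and 3 lower, against 8.85% of all genes higher and 4.27% lower. SESN3, the sestrin paralog of SESN1, rose from 5.97 ± 0.11 to 8.45 ± 0.21 (SD, n = 4), a fold of 5.60 (95% CI 4.68 to 6.70, limma adjusted p = 3.59e-06). The confidence interval of SESN3 (2.23 to 2.74 on the log2 scale) lay above that of SESN1 (-0.09 to 0.45), although the difference between the genes was not tested. CYP11A1, the mitochondrial P450 that receives electrons through FDXR, was higher by 0.62 (adjusted p = 0.0464) from a level of 0.507 estimated FPKM. Of its exonic bases 27.0% are shared with other genes. CYP11A1 lost its call in 6 of 8 fits that left out 1 library, all but those without vehicle replicate 3 or EZHi replicate 2 (adjusted p up to 0.122), and after quantile normalization (0.155). Of the antagonists of BAX in the list, BCL2L1, which encodes BCL-XL, was lower (-0.34, adjusted p = 0.0145), as was MCL1 (-0.35, adjusted p = 0.0348), while BCL2, named after its values were seen, was not called (-0.13, adjusted p = 0.547). XIAP, a caspase inhibitor, was also lower (-0.25, adjusted p = 0.0353). BCL2L1 was called in each of the 8 fits that left out 1 library but not after quantile normalization (adjusted p = 0.0842), and 41.3% of its exonic bases are shared, all with ABALON. Of the 8 fits that left out 1 library, only that without vehicle replicate 1 called MCL1 and XIAP (adjusted p up to 0.1003 and 0.1042 elsewhere). Neither was called after centering (0.0995 and 0.173) or quantile normalization (0.142 and 0.144). Both were called with the block (limma adjusted p = 0.000737 and 0.00990). With the block and centering together MCL1 was called (0.00279) and XIAP was not (0.0688). The subunits that pair with RRM2B or replace it, RRM1 (-0.21, adjusted p = 0.343) and RRM2 (-0.19, adjusted p = 0.331), were called only with the block (adjusted p = 0.0242 and 0.0155), and CYCS was not called (-0.07, adjusted p = 0.704). The list had 2 or 3 calls without any library other than vehicle replicate 1. It had 3 after centering (16.7%, against 14.2% of all genes) and 1 after quantile normalization (5.56%, against 10.8%). With the block it had 10 (55.6%), against 30.0% of all genes and 38.7% of those in the members' range of levels.

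p53 also lowers cell cycle genes indirectly, through p21 and the DREAM repressor complex. Of 16 such genes, 3 were called, each lower (18.8%, against 4.27% of all genes lower). Among the 9006 genes in the members' range of levels the share called lower was larger than over all genes, at 728 genes, and with the block 2609 were called lower. AURKA, a mitotic kinase, had a log2 difference of -0.32 (limma adjusted p = 0.00451) and was called in each of the 8 fits that left out 1 library. BUB1, of the spindle checkpoint (-0.29, adjusted p = 0.0422), and CCNA2, cyclin A2 (-0.36, adjusted p = 0.0270), were less stable. Of the 8 fits that left out 1 library, only those without vehicle replicate 3 or EZHi replicate 1 called them (adjusted p up to 0.121 and 0.0797 otherwise). Neither was called after centering alone or quantile normalization. Both were called with the block (limma adjusted p = 0.00781 and 0.00118) and with the block and centering together (0.0425 and 0.00465). Log2 fold changes were negative for 15 of 16, with a median of -0.17, and after centering for 12 of 16, with a median of -0.07, against 10481 and 6305 of the 20153 genes tested. The abundant uncalled genes were TOP2A (0.02, adjusted p = 0.877), CCNB1 (-0.15, adjusted p = 0.454) and PLK1 (-0.20, adjusted p = 0.123), and PLK1 passed with the block (adjusted p = 0.00663). There were 5 calls without vehicle replicate 3, 1 without vehicle replicate 1, 2 or 4 or EZHi replicate 2, 3 or 4, 1 after centering and 1 after quantile normalization. With the block 9 were called, all lower (56.2%), against 15.1% of all genes and 2609 of the 9006 genes in the members' range.

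**Figure D4:**
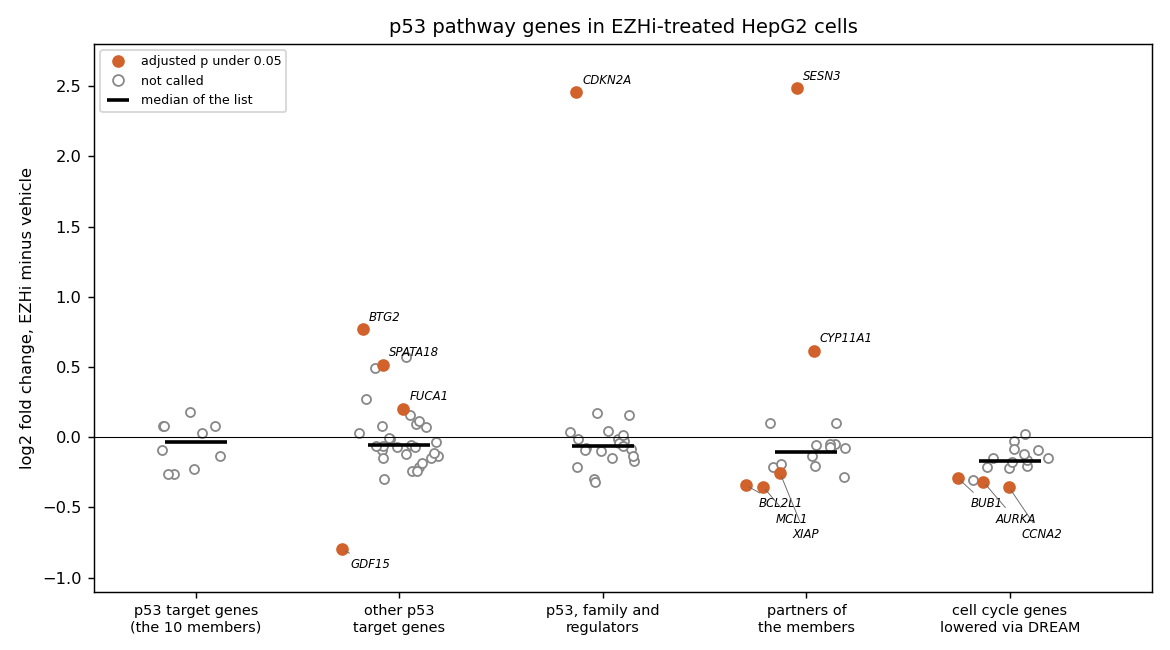
Log2 fold changes (EZHi minus vehicle, y axis) of the 10 p53 target genes and of 4 related gene lists, with 1 point per gene and a bar for each list's median. Points are filled where the limma adjusted p without the replicate block was under 0.05. CDKN2A and SESN3 stand far above the rest, at 2.46 and 2.49, while the 10 members lie between -0.26 and 0.18 with no filled point.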

How the data were processed

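RNA sequencing of mRNA from 8 HepG2 libraries, 4 vehicle and 4 EZHi, was analyzed, grouped and numbered by their titles. By the study's methods and the submitters' processing notes, reads were mapped to hg38 with HISAT2 2.2.1, counted per gene over exons with HTSeq 0.9.1 without strand, and normalized with the regularized log of DESeq2 1.40.2, followed by a correction for mean transcript length. The versions are those of the processing notes, and the methods text names others for the aligner and the normalization tool. The values deposited by the authors are on a log2 scale. That transformation pulls low-count genes toward their mean, which understates their fold changes. Of 25604 rows, 1 repeated a gene and was dropped.

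Estimated FPKM was 2 to the power of the value, divided by 25.6, the mean sum of normalized reads per library in M reads. The 20153 genes whose estimated FPKM averaged 0.1 or more over the 8 libraries were fitted by group with limma 3.58.1 in R 4.3.3 (trended prior, two-sided, Benjamini-Hochberg adjustment over all of them). A count model was not used because the values are not counts. Summaries were made in Python 3.11.15, coordinates and overlaps came from GENCODE release 44 (GRCh38), and the script was tested on simulated data. Replicate numbers paired the samples: deviations from group means correlated at 0.22 to 0.63 between libraries of the same number (4 pairs) and at -0.58 to 0.20 between the others (12 pairs), so the fit with the number as a block is given beside the named genes whose call it changes.

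The members and the gene lists were chosen with earlier results of these data known. All members are named. Of the other lists CDKN1A, each called gene (6 at most) and up to 3 uncalled genes of highest level are named, with the 5 genes most correlated with MDM2. A further gene that the rule names is not reported here. The mismatch limit of the promoter search was set after the windows were read. Alternatives were a filter at 1 or none, a pseudocount of 0.5, centering on genes of at least 10 estimated FPKM, quantile normalization, the block, and leaving out each library.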

Additional observations from a re-analysis of the deposited data

Results flagged for a closer look

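In 4 of the 74 groups of 4 values examined 1 library stood far from the other 3, where chance would give about 1 in 20, or 3.7. ZMAT3 in vehicle replicate 1 was at 8.36 against 8.61 to 8.66 in the others, and without this library the difference between groups was -0.29 (limma adjusted p = 0.122). RRM2B in vehicle replicate 2 was at 11.02 against 10.69 to 10.71, and the difference without it was -0.18 (adjusted p = 0.149). RPL11, a ribosomal protein that can bind MDM2, was at 14.70 in EZHi replicate 3 against 14.43 to 14.45, and at -0.13 between groups without it (adjusted p = 0.466). TNFRSF10B, a death receptor, was at 11.26 in EZHi replicate 1 against 11.49 to 11.52, and at -0.08 between groups without it (adjusted p = 0.4998).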

How the results depend on the processing

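Read depth is unknown, and the regularized log and 4 libraries per group limit how small a change can be seen. Over the 10 members, 134 of 150 alternative values kept their direction and their side of the threshold, 9 turned direction and 7 passed the threshold, the last all with the replicate block. The cause of these changes was not tested. MDM2 was at 0.0039 after centering, with or without the block, and at 0.028 after quantile normalization, where FAS was at -0.053. Without 1 library, FAS ranged from -0.12 to 0.19, TP53I3 from -0.028 to 0.23 and FDXR from -0.056 to 0.16, and the other 7 members kept their direction. No member was called in any of these 8 fits, with MDM2 at -0.16 to -0.018, BBC3 at -0.31 to -0.21 and RRM2B at -0.30 to -0.18.

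With the block, for which the replicate numbers gave the pairing, 4 members, 11 other p53 targets, 6 regulators, 10 partners and 9 DREAM targets were called. With the block and centering together, a setting chosen after seeing the data, the counts were 3, 12, 4, 4 and 4. Centering alone called 3 partners and 1 DREAM target, and quantile normalization 1 and 1. Without 1 library the calls ranged from 0 to 0 for members, 1 to 4 for other targets, 1 to 3 for regulators, 2 to 4 for partners and 1 to 5 for DREAM targets. Over all genes 2644 were called (1784 higher, 860 lower), 6051 with the block and 1579 with the filter at 1. Centering called 2550 higher and 319 lower.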
